A study of Mus musculus with 16 samples.

Results

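The 10 genes of bacterial sensing described here were followed through neutrophils of septic mice, namely Tlr1, Tlr2, Tlr4, Tlr6, Tlr9, Tlr13, Cd14, Ly96, Myd88 and Tirap. They were chosen by name, by matching the mouse symbol of each gene to the Ensembl identifier of the count files, and all 10 were found among the 49315 genes listed. Cells positive for Ly6G, CD11b and CD45.2 had been sorted as neutrophils out of blood or lung, RNA was amplified as full-length cDNA, and the reads were deposited as counts per gene in 24 files. The files fall into 8 groups of 3, set by genotype (WT or αD KO), tissue (blood or lung) and time (0h, from naïve mice, or 12 hours after cecal ligation and puncture, CLP). CLP opens the gut into the peritoneum and causes sepsis with mixed bacteria.

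The label of every sample states that CLP was done in males aged 8 to 12 weeks. WT and αD KO mice both came from Jackson Laboratory, and αD KO mice carried a knockout of CD11d, the αD chain of a β2 integrin, with no limit to a cell type stated. The 0h groups had no treatment, so the effects of sepsis, surgery, anaesthesia and analgesia at 12 hours cannot be told apart. The 8 groups are listed under 2 samples each, and the first sample has a pair of files, called libraries 1a and 1b here, while the file of the second is library 2. Neither the labels nor the methods say whether libraries came from separate animals, so p-values measure the spread between these libraries, which may be technical. In sorted bulk cells, fewer cells of a type and less RNA per cell cannot be told apart.

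Toll-like receptors (TLRs) are membrane proteins that bind conserved microbial molecules and signal through a shared intracellular domain. TLR4, with its partner MD-2 (encoded by Ly96) and with CD14, which hands lipopolysaccharide over to them, senses the endotoxin of Gram-negative bacteria. TLR2 pairs with TLR1 or TLR6 at the cell surface to bind bacterial lipoproteins, and TLR9 and TLR13 read bacterial DNA and ribosomal RNA in endosomes. The adaptor MyD88, bridged to TLR2 and TLR4 by TIRAP, passes the signal on to kinases that activate NF-κB. Neutrophils are known to use these receptors to prolong survival and to release cytokines when they meet bacteria.

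Tlr1 and Tlr6 are neighbours on chromosome 5 (from 64924679 to 64933563 and from 64952031 to 64960097, both on the minus strand of GRCm38). Tlr2 lies on chromosome 3 from 83836272 to 83841767, also on the minus strand. The stretches just before these 3 genes are shown because they belong to the receptors of lipoproteins, of which Tlr1 passed the test of time in WT, Tlr2 in αD KO blood and Tlr6 in no comparison. They are RefSeq promoter windows (GRCm38.p6), cut so that no base of the gene as annotated in the count files is included, and are written 5′ to 3′ on the strand of the gene. Capitals mark matches to an NF-κB consensus of 10 letters in Tlr2 and to GAGGAA, the core of PU.1 binding sites, in Tlr1, both searched on both strands.
Tlr1, chr5:64933564-64933808, minus strand: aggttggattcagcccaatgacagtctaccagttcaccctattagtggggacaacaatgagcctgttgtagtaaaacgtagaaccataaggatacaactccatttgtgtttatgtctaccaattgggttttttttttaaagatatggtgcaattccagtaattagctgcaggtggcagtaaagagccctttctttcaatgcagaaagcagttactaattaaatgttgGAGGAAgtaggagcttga
Tlr6, chr5:64960098-64960298, minus strand: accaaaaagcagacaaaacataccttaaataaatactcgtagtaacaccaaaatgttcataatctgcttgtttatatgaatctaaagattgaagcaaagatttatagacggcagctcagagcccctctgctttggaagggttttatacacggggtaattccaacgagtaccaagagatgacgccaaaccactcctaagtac
Tlr2, chr3:83841768-83841858, minus strand: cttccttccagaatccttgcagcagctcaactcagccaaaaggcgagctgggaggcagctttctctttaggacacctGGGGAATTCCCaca

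Windows of 250 bases before an annotated start were at hand for 7 of the 10 genes, 10 windows in all. The NF-κB consensus matched in 1 of the 10, that of Tlr2, where overlapping matches began 14 bases before the gene, against 7.25% of all 32851 windows. GAGGAA matched in 3 of the 10, in Tlr1 (18 bases before the gene), Tlr9 and Tlr13, against 23.3% of all windows. These matches are letters in a window, and no binding was measured.

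Expression was calculated as CPM, the count of a gene scaled to a common library size after TMM normalization over the 24 libraries (factors 0.557 to 1.93), and differences as log2 fold changes with their standard error (SE) from edgeR. Fold changes were fitted with TMM factors of the libraries compared and do not equal ratios of mean CPM. A gene was called differentially expressed (DEG) at a Benjamini-Hochberg adjusted p under 0.05 over all genes tested and an absolute log2 fold change over 1, by edgeR's quasi-likelihood test. For a single gene, an exact permutation test of 3 libraries against 3 cannot give a p below 0.1. The 8 libraries 1b were shallower, with 5753476 to 17976890 counts (median 11115220) against 16565779 to 29984954 (median 23108906) in the other 16, yet had counts in 29162 to 38844 genes against 17132 to 32666. Leaving out Tlr9, library 1b was the lowest of its group in 63 of 72 cases for the sensing genes (87.5%) and in 71.7% of cases over all genes with a mean of at least 10 CPM. Fits with libraries 1a and 2 alone are given below as well.

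Itgad, the gene of αD, did not follow its label. Its 12 WT libraries ranged from 0.0583 to 3.66 CPM and the 12 with the αD KO label from 12.5 to 102 CPM, without overlap. As counts are summed over the exons of a gene, an mRNA made from a disrupted allele would be counted like any other, and genotype is used below as the labels give it. Whether genotype labels are wrong cannot be told from these counts, and the sign of every difference between αD KO and WT rests on them. The neutrophil markers S100a8 and S100a9 were at or above 8852 and 9460 CPM in every library, while Ly6g, the sorted surface protein's gene, was between 18.4 and 467 CPM. Along the WT lung change from 0h (position 0) to 12 hours (position 1), measured over 1338 DEGs other than these sensing genes and Itgad, 3 lung libraries labelled αD KO stood far from their label. Library 2 of 0h was at 1.03, where libraries 1a and 1b were at 0.146 and 0.0691. At 12 hours libraries 1a and 2 were at 0.0883 and 0.191, where library 1b was at 0.818. Whether their time labels were exchanged cannot be told from these counts either. Log2 fold changes of these sensing genes in αD KO lung are mostly given below without these 3 libraries as well, while levels, ratios and summed markers are not. As the 3 were picked by their position between the times, values without them depend on that choice and are a description with no test.

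Cd14 (chromosome 18, 36725074 to 36726736) had the widest range of all 10 genes. In WT blood its expression was 256, 47.4 and 172 CPM at 0h (libraries 1a, 1b and 2) and 2857, 1174 and 1620 CPM at 12 hours. In WT lung it was 249, 123 and 515 CPM at 0h and 14764, 1253 and 15452 CPM at 12 hours. The groups did not overlap in either tissue, and lung library 1b was about as high as blood library 1b. Cd14 was a DEG in both, higher by a log2 fold change of 3.39 in blood (SE 0.62, adjusted p = 0.0140) and 4.97 in lung (SE 0.96, adjusted p = 0.0221). Cd14 rose in αD KO blood as well, from 206, 65.3 and 105 CPM to 5157, 1608 and 2453 CPM (log2 fold change 4.41, SE 0.55, adjusted p = 0.00521).

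In lungs of αD KO mice the libraries of both times overlapped. Cd14 was 374, 278 and 7544 CPM in libraries 1a, 1b and 2 of 0h and 479, 3708 and 1792 CPM at 12 hours (log2 fold change -0.17, SE 1.29, adjusted p = 1.00). The high library at 0h and the lowest library at 12 hours were among the 3 that stood apart. Without those 3, library 1b of 12 hours was set against libraries 1a and 1b of 0h, and the log2 fold change of Cd14 was 3.58. That contrast keeps the libraries whose position fits their time and so cannot serve as a test of the change with time.

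Tlr1, the partner of TLR2 for triacylated lipoproteins, was low at 0h and rose in WT. Blood libraries held 6.35, 1.17 and 4.97 CPM at 0h and 34.4, 24.9 and 42.3 CPM at 12 hours. Lung libraries held 5.63, 3.30 and 4.70 CPM at 0h and 37.3, 33.9 and 28.9 CPM at 12 hours. Every library at 12 hours was above every library at 0h in both tissues. The log2 fold changes were 2.83 in blood (SE 0.50, adjusted p = 0.0128) and 2.88 in lung (SE 0.36, adjusted p = 0.00597), both DEGs. Tlr1 in αD KO blood was 4.0, 2.39 and 12.6 CPM at 0h and 19.9, 19.2 and 27.1 CPM at 12 hours. These groups did not overlap either, but the change was not called (log2 fold change 1.63, SE 0.56, adjusted p = 0.107). It was called in 4 of 14 alternatives, over which the adjusted p ranged from 0.0238 to 0.341. With the library number as a block the log2 fold change was 1.90 (adjusted p = 0.0428, 10.7% of all genes called), and same-numbered libraries deviated together in that comparison. It was 1.69 by DESeq2 (adjusted p = 0.0238, 17.6%), 1.66 with no filter on low counts (adjusted p = 0.0396, 4.05%) and 2.62 without library 2 of 0h (adjusted p = 0.0250, 3.51%). Tlr1 in αD KO lung was 7.47, 4.67 and 23.9 CPM at 0h and 7.67, 16.0 and 17.0 CPM at 12 hours, with a log2 fold change of 0.32 (adjusted p = 1.00) that became 1.47 without the 3 libraries that stood apart.

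Tlr2, the shared chain of the lipoprotein receptors, was called in 1 comparison. Its αD KO blood libraries held 182, 104 and 111 CPM at 0h and 451, 356 and 428 CPM at 12 hours, a log2 fold change of 1.43 (SE 0.28, adjusted p = 0.0217). In WT blood it was 204, 52.1 and 230 CPM at 0h and 476, 230 and 372 CPM at 12 hours, so that the lowest library of 12 hours barely cleared the highest of 0h, and the difference was not called (log2 fold change 0.98, SE 0.49, adjusted p = 0.234). In WT lung it was 116, 101 and 289 CPM at 0h and 1617, 219 and 461 CPM at 12 hours, where library 1a carried most of the mean and the groups overlapped (log2 fold change 2.02, SE 0.70, adjusted p = 0.108). DESeq2, which called 18.9% of all genes there, called the WT lung difference at an adjusted p of 0.0148 (range over 14 alternatives 0.0148 to 0.814). In αD KO lung the log2 fold change was 0.40 (adjusted p = 1.00), and 1.18 without the 3 libraries that stood apart.

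Tirap (chromosome 9, 35184551 to 35200291), the adaptor that bridges MyD88 to the surface receptors, rose in αD KO blood at the edge of both thresholds. It was 94.3, 62.1 and 60.7 CPM at 0h and 195, 152 and 170 CPM at 12 hours (log2 fold change 1.03, SE 0.27, adjusted p = 0.0499). It was called in 4 of 14 alternatives, over which the adjusted p ranged from 0.00622 to 0.188, and not with libraries 1a and 2 alone (adjusted p = 0.0693). WT blood gave 74.3, 45.8 and 93.7 CPM at 0h and 166, 137 and 158 CPM at 12 hours, and was not called (log2 fold change 0.93, SE 0.28, adjusted p = 0.0645). In neither genotype did the blood groups overlap. In lung, Tirap had log2 fold changes of 0.24 in WT and 0.27 in αD KO (0.33 without the 3 libraries that stood apart), with overlapping libraries. Exons of Tirap share 446 bases with Gm39318 (262 counts in all libraries) and 39 bases with Srpr (42262 counts), both on the other strand, and the library kit does not mark strand, so these reads cannot be told apart.

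**Figure D1:**
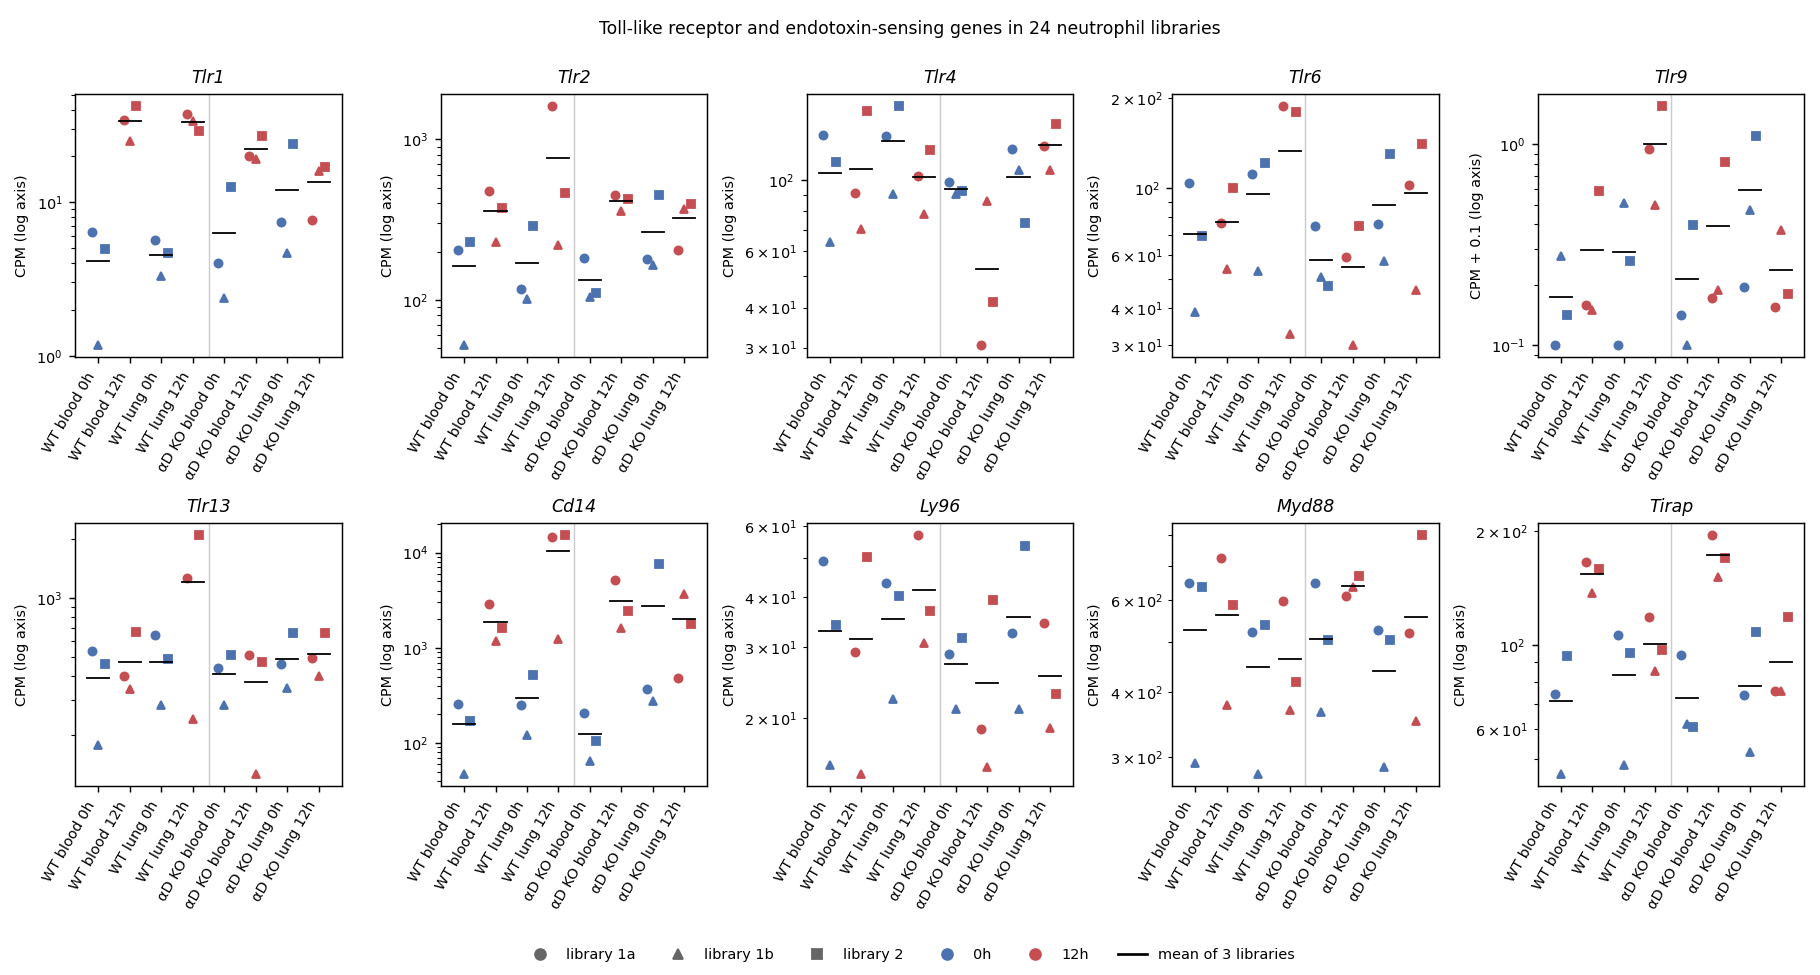
Expression of the 10 genes in each of the 24 libraries, in CPM on a log axis (CPM + 0.1 for Tlr9), by genotype, tissue and time. Circles, triangles and squares are libraries 1a, 1b and 2, blue is 0h, red is 12 hours after CLP, and the bar is the mean of 3 libraries. Red points of Cd14 and Tlr1 lie above the blue ones in WT blood, WT lung and αD KO blood, and mix with them in αD KO lung.

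The other 6 genes passed the test in none of the 4 comparisons of time. Tlr4, the endotoxin receptor itself (chromosome 4, 66827584 to 66930284), was 138, 64.3 and 114 CPM in WT blood at 0h and 90.9, 70.3 and 164 CPM at 12 hours (log2 fold change -0.17, SE 0.36, adjusted p = 0.788). Its αD KO blood libraries held 98.7, 90.8 and 92.7 CPM at 0h and 30.5, 85.9 and 41.6 CPM at 12 hours. All 3 libraries of 12 hours were below all 3 of 0h there, 1b by a little (log2 fold change -1.02, SE 0.44, adjusted p = 0.176). When that library 1b was left out, Tlr4 was called lower (log2 fold change -1.63, adjusted p = 0.0186, range over 14 alternatives 0.0186 to 0.491), as it was with libraries 1a and 2 alone (-1.61, adjusted p = 0.0229). These fits called 8.74% and 11% of all genes. In lung its log2 fold changes were -0.42 in WT and 0.37 in αD KO (adjusted p = 0.455 and 1.00), and -0.04 in αD KO without the 3 libraries that stood apart.

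Ly96 (chromosome 1, 16688051 to 16709611), whose product MD-2 holds the lipid of endotoxin on TLR4, was between 14.6 and 57.2 CPM over the 24 libraries, with log2 fold changes between -0.42 and 0.19 over the 4 comparisons. Tlr6, which pairs with TLR2 for diacylated lipoproteins, was between 30.0 and 188 CPM, with log2 fold changes from -0.33 to 0.33. Tlr1 and Tlr6 are related in sequence and only uniquely mapped reads were counted, so reads from stretches that they share would be missing from both. Myd88, the adaptor of nearly all TLRs (chromosome 9, 119335934 to 119341411), was between 278 and 803 CPM, with log2 fold changes from -0.10 to 0.38. Its exons share 290 bases with Acaa1a on the other strand (54003 counts), which cannot be separated. Without the 3 libraries that stood apart, the αD KO lung values of these genes were -0.44 for Ly96, -0.47 for Tlr6 and -0.14 for Myd88.

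The endosomal receptors differed widely in level. Tlr13, which binds a stretch of bacterial ribosomal RNA (chromosome X, 106143204 to 106160493), was between 126 and 2107 CPM. Its highest values were 1261 and 2107 CPM in WT lung libraries 1a and 2 at 12 hours, where library 1b was 241 CPM against 650, 283 and 488 CPM at 0h (log2 fold change 1.19, SE 0.63, adjusted p = 0.279). Without that library 1b, Tlr13 was called (log2 fold change 1.54, adjusted p = 0.0190, range over 14 alternatives 0.0127 to 1.00), in a fit that called 25.3% of all genes. In αD KO lung its log2 fold change was 0.14 (adjusted p = 1.00), and 0.06 without the 3 libraries that stood apart. Tlr9, the receptor for unmethylated CpG DNA (chromosome 9, 106222598 to 106226883), had 116 counts in all 24 libraries and at most 25 in any, and 3 libraries had 0. A count of 0 allows up to 3 counts, 0.109 to 0.211 CPM in these libraries. Tlr9 passed the filter on low counts in WT lung only among the comparisons of time, at 0, 0.412 and 0.162 CPM at 0h and 0.846, 0.4 and 1.45 CPM at 12 hours (0, 8 and 4 counts against 12, 5 and 25), and it was not called. It entered that fit, and the fit with libraries 1a and 2 alone, where it was among the 5 members called (37.2% of all genes), through the group of 12 hours, so no fold change is given. At this depth a difference of Tlr9 was not detectable in the other comparisons of time. Such limits cover counting error only, since the reads carry no molecular identifiers.

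Counted over the whole set, 2 of 9 members tested were DEGs in WT blood, both higher, where 13.5% of 14625 genes were called, and 4 of 9 did not overlap between times, against 34.7% of genes. In WT lung 2 of 9, leaving out Tlr9, were DEGs against 9.02% of 14859 genes, and 2 did not overlap against 28.5%. In αD KO blood 3 of 9 were DEGs against 8.75% of 14156 genes, and 5 did not overlap against 32.2%. In αD KO lung 0 of 9 were called, with 0% of 17939 genes called, 0 members at an unadjusted p under 0.05, 0 called by DESeq2, and 0 without overlap against 2.88%. The median log2 fold change of these 9 members was 0.09, 0.33, 0.14 and 0.27 in these 4 comparisons, beside -0.15, 0.03, -0.14 and -0.05 over all genes. With 9 members these shares are a description. Scaled to raw totals in place of TMM, the same genes were higher without overlap, while Myd88 in WT blood, Tlr4 in WT lung, and Tlr13 and Myd88 in αD KO blood were lower without overlap as well. The share of all genes without overlap was not computed for raw totals, so these cases cannot be read as a result about the members.

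Single libraries bore on most of these calls. In WT blood 0 of the 2 calls held without library 1a or 2 of either time (adjusted p up to 0.206 for Tlr1 and 0.207 for Cd14), in fits that called 0.00999% to 0.811% of all genes. Both held without either library 1b, where 9.9% and 18.4% of all genes were called. In WT lung 0 held without library 1a or 2 of either time (up to 0.134 for Tlr1 and 0.290 for Cd14), where 0% to 0.122% of all genes were called. Tlr1 alone held without library 1b of 0h (5.03% of all genes), and without library 1b of 12 hours 4 genes were called, Tlr1, Tlr2, Tlr13 and Cd14, against 25.3% of all genes. Cd14 in αD KO blood held without each of the 6 libraries (adjusted p at most 0.0423). Tlr2 and Tirap held only without library 1b of 12 hours, where 8.74% of all genes were called, against 0.456% to 4.67% in the other 5 of these fits. Over the 14 alternatives the log2 fold changes themselves ranged from 2.45 to 3.23 for Tlr1 and from 2.99 to 3.89 for Cd14 in WT blood, from 2.44 to 3.08 and from 4.42 to 5.70 in WT lung, and from 3.89 to 4.97 for Cd14 in αD KO blood.

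**Figure D2:**
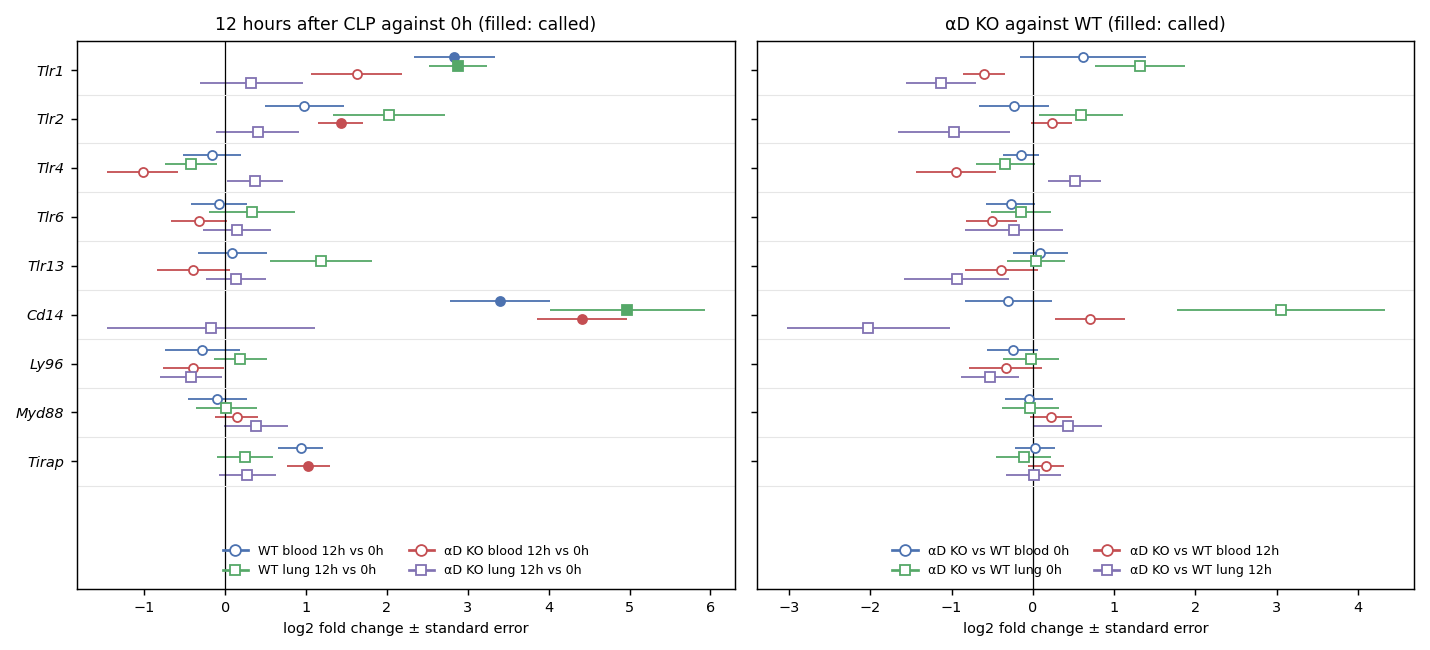
Log2 fold change of 9 of the genes (Tlr9 is left out) with its standard error, at 12 hours after CLP against 0h on the left and in αD KO against WT on the right. Filled symbols are DEGs by edgeR: Tlr1 and Cd14 in WT blood and WT lung, and Tlr2, Cd14 and Tirap in αD KO blood; none is filled on the right.

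Summed markers of other cells and of neutrophil age differed between times too. The summed level of 11 monocyte and macrophage markers, all with counts in every group, was lower at 12 hours, at 103 to 296 CPM against 408 to 1134 CPM in WT blood, 207 to 301 against 545 to 939 CPM in WT lung, and 134 to 202 against 566 to 1357 CPM in αD KO blood. Cd14, which monocytes also express, was higher there. In αD KO lung the sum was 343 to 771 CPM at 12 hours and 244 to 536 CPM at 0h. Summed B cell markers, 8 of 8 with counts, were 41.6 to 271 CPM at 12 hours against 273 to 1215 CPM at 0h in WT blood, 35.1 to 110 against 433 to 788 CPM in WT lung and 38.9 to 143 against 328 to 1509 CPM in αD KO blood, and overlapped in αD KO lung at 61.1 to 527 against 54.5 to 434 CPM. Of 8 markers of immature neutrophils, all with counts, the granule genes Ltf, Camp, Ngp and Chil3 gave nearly all of the level. The primary granule genes were near 0, with medians over the libraries of 12 hours and of 0h of 0.397 and 0.610 CPM for Mpo, 0.0527 and 0.0988 CPM for Ctsg, 0.213 and 0.0188 CPM for Elane, and 3.10 and 0.899 CPM for Prtn3. The sums of the 8 were 65843 to 164757 CPM at 12 hours against 40.3 to 6844 CPM at 0h in WT blood, and 18427 to 56802 against 147 to 1364 CPM in WT lung. In αD KO blood they were 23312 to 110522 against 145 to 18568 CPM, and in αD KO lung 7245 to 13515 against 181 to 58675 CPM. Summed neutrophil markers were higher at 12 hours without overlap, at 106802 to 203013 against 26542 to 45954 CPM in WT blood. This held in WT lung and αD KO blood too, but not in αD KO lung. T and NK cell and platelet sums were lower without overlap in WT blood alone. Lung structural sums overlapped between times. At 12 hours they were 55.6 to 322 CPM in WT lung and 4.96 to 9.33 CPM in WT blood. The part of any of these in the changes of Tlr1, Tlr2, Cd14 and Tirap, or in differences between tissues, was not tested.

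Levels were compared between genes per kilobase of exon. In WT blood at 0h the order of mean CPM per kb was Myd88 at 204, Cd14 at 101, Tlr13 at 95.8, Tlr2 at 53.8, Ly96 at 32.2, Tlr6 and Tlr4 at 19.0 each, Tirap at 14.5, Tlr1 at 1.24 and Tlr9 at 0.0213. Neighbours in that order overlapped down to Tirap, while Tlr1 lay below Tirap and Tlr9 below Tlr1 in every library. At 12 hours Cd14 stood first and clear of the next gene, at 1198 CPM per kb in WT blood, 6673 in WT lung and 1955 in αD KO blood. Myd88 followed in both blood groups, at 219 and 248 CPM per kb, while in WT lung Tlr13 at 294, Tlr2 at 254 and Myd88 at 179 overlapped. By their means Tlr1 and Tlr9 were the lowest in all 8 groups. The range of Tlr1 overlapped those of Tlr4 and Tlr6 in αD KO blood at 12 hours, and that of Tlr6 in WT lung at 12 hours.

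Ratios of partner genes within a library were compared next. The pairs Cd14 with Tlr4, Tlr1 with Tlr6, and Tirap with Myd88 were chosen after the values were seen, and are described without a test. The ratio of Cd14 to Tlr4, per kb, was 6.55, 2.61 and 5.35 in WT blood at 0h and 111, 59.0 and 34.9 at 12 hours. In WT lung it was 6.42, 4.8 and 10.7 at 0h and 505, 56.5 and 439 at 12 hours. It was 7.39, 2.54 and 4.01 in αD KO blood at 0h and 598, 66.1 and 209 at 12 hours. No library of 12 hours was within the range of 0h in these 3 pairs of groups. In αD KO lung library 2 of 0h was at 364 beside 10.6 and 9.15, and the 12-hour libraries were at 13.2, 122 and 42.3.

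Tlr1 was far below Tlr6 at 0h. Their ratio per kb was 0.0337 to 0.0798 in WT blood and 0.0431 to 0.0690 in WT lung, and at 12 hours 0.471 to 0.514 and 0.180 to 1.15. In αD KO blood it was 0.0526 to 0.296 at 0h and 0.375 to 0.712 at 12 hours. These ranges did not overlap, whereas those of αD KO lung did (0.0910 to 0.205 and 0.0834 to 0.390). Tirap against Myd88 went from 0.0599 to 0.0819 at 0h to 0.119 to 0.190 at 12 hours in WT blood, and from 0.0631 to 0.0887 to 0.124 to 0.167 in αD KO blood, while the lung ranges overlapped in both genotypes. Ly96 against Tlr4 was between 0.837 and 5.15 over the 24 libraries.

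**Figure D3:**
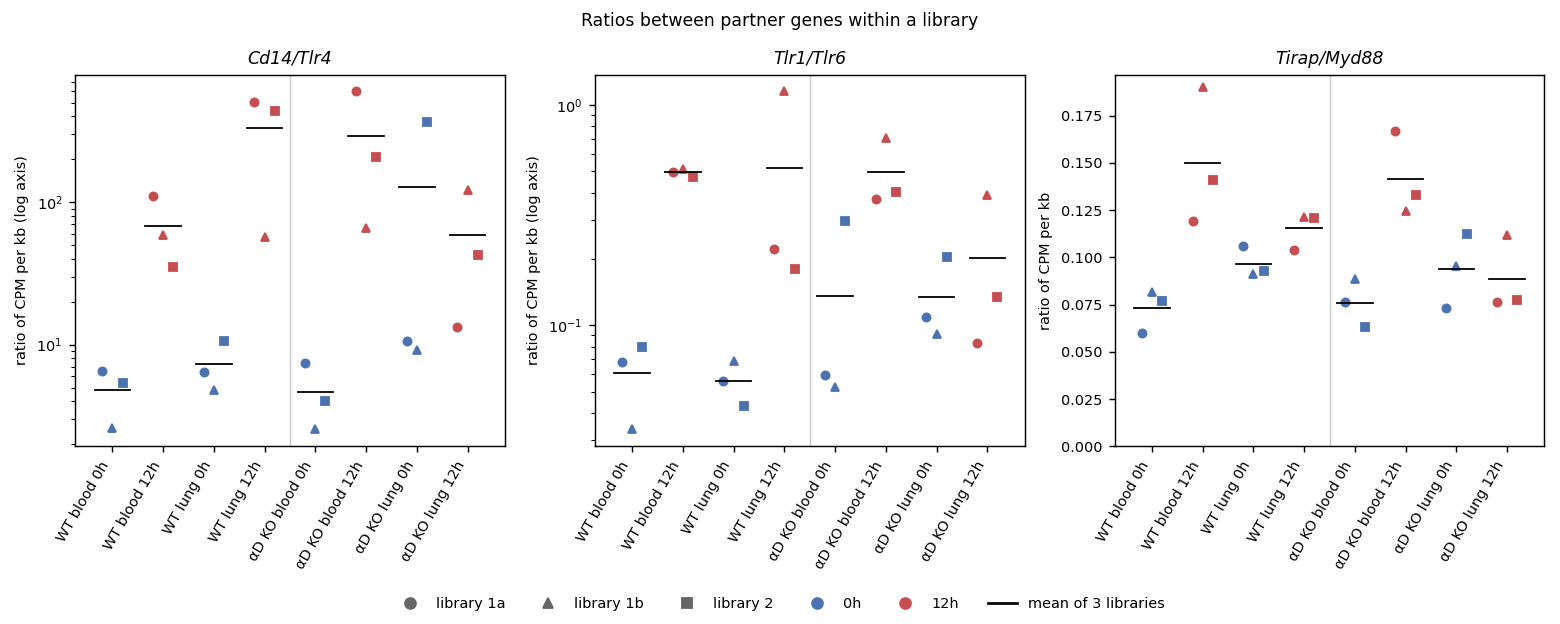
Ratios of CPM per kb within each library for Cd14 to Tlr4 and Tlr1 to Tlr6 (log axes) and Tirap to Myd88 (linear axis from 0), by group. Circles, triangles and squares are libraries 1a, 1b and 2, blue is 0h, red is 12 hours, and the bar is the mean of 3 libraries. The red points of Cd14 to Tlr4 in WT and in αD KO blood lie at 34.9 or higher, and the blue ones at 10.7 or lower.

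Beyond the 10 genes, 49 other genes of the pathway in 6 lists were followed in the same fits. In WT blood 8 of 45 tested were higher and 4 lower, where 13.5% of all genes were called. Among genes of endotoxin handling 4 of 8 tested were called, all higher, and Lbp, which loads lipopolysaccharide onto CD14, was at 113 ± 5.55 CPM against 4.34 ± 0.88 CPM (SD, n = 3, log2 fold change 4.51, adjusted p = 0.00128). Aoah, the lipase that inactivates endotoxin, had a log2 fold change of 3.01 (adjusted p = 0.00626). Of 4 TLR chaperones, 2 were lower, among them Cnpy3 (-1.84, adjusted p = 0.0132). In the TRIF arm, the second route downstream of TLR3 and TLR4, 2 of 8 were higher, and the kinase gene Ikbke went from 3.32 ± 1.24 to 511 ± 414 CPM (6.97, adjusted p = 0.00589), while Ticam1, the gene of TRIF, had 1.82 (adjusted p = 0.0241). Of 3 other TLRs tested, 2 were called, as Tlr5, the flagellin receptor, was lower (-3.90, adjusted p = 0.0162) and Tlr7, a receptor for single-stranded RNA, higher (2.20, adjusted p = 0.0165). In the list of brakes, Sigirr was higher (3.25, adjusted p = 0.0194), at 6.57 ± 0.81 CPM against a low 0.615 ± 0.417 CPM. Another gene of that list was lower, with libraries that overlapped. Of the MyD88 arm, kinases and other signalling genes, 0 of 13 genes passed the test.

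In WT lung 5 of 45 were higher and 3 lower, against 9.02% of all genes called. Lbp (log2 fold change 3.40, adjusted p = 0.00383), Ikbke (7.77, adjusted p = 0.00492), Aoah (3.46, adjusted p = 0.00887) and Tlr7 (2.93, adjusted p = 0.0134) rose as DEGs there. Irak3, an inhibitor of the MyD88 complex, rose too (3.58, adjusted p = 0.0182). Cnpy3 (-1.46, adjusted p = 0.0195) and Tlr8 (-1.43, adjusted p = 0.0295) fell. The third gene called lower, Ly86, the partner of the TLR-like protein CD180, was at 0.166 ± 0.158 CPM at 12 hours against 1.58 ± 0.39 CPM at 0h (SD, n = 3, adjusted p = 0.0452), a level near the limit of a count of 0, so the size of its change is uncertain. In αD KO blood 5 of 44 rose and 2 fell, against 8.75% of all genes called. Irak3 (3.0, adjusted p = 0.00372), Ikbke (5.66, adjusted p = 0.00393), the NF-κB inhibitor gene Tnfaip3 (2.61, adjusted p = 0.00693), Lbp (3.03, adjusted p = 0.00861) and Casp4, an intracellular endotoxin sensor (1.62, adjusted p = 0.0313), were the higher ones. Unc93b1, which carries endosomal TLRs (-1.69, adjusted p = 0.0140), and Cnpy3 (-1.22, adjusted p = 0.0270) were lower. In αD KO lung 0 of 46 passed the test with all 6 libraries, as did 0 of 13 genes of the MyD88 arm in each of the 4 comparisons. Without the 3 libraries that stood apart, library 1b of 12 hours was set against 1a and 1b of 0h, which is a description. The median log2 fold change of the pathway genes was then 0.09, beside -0.11 over all genes of that fit. With all 6 libraries these medians were -0.10 and -0.05. Without the 3 libraries Ikbke was at 7.09 (-0.43 with all 6), Irak3 at 3.21 (-0.71), Tlr7 at 1.81 (-0.84) and Cnpy3 at -1.56 (0.33). Each of these genes was a DEG in WT lung and so among the genes that set the positions. Their values without the 3 libraries are partly fixed by that choice. The median log2 fold change of all these genes with all libraries was 0.32, 0.60, 0.32 and -0.10 in the order WT blood, WT lung, αD KO blood and αD KO lung. Of the genes called here, Irak3 in αD KO blood alone held without each of the 6 libraries in turn.

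**Figure D4:**
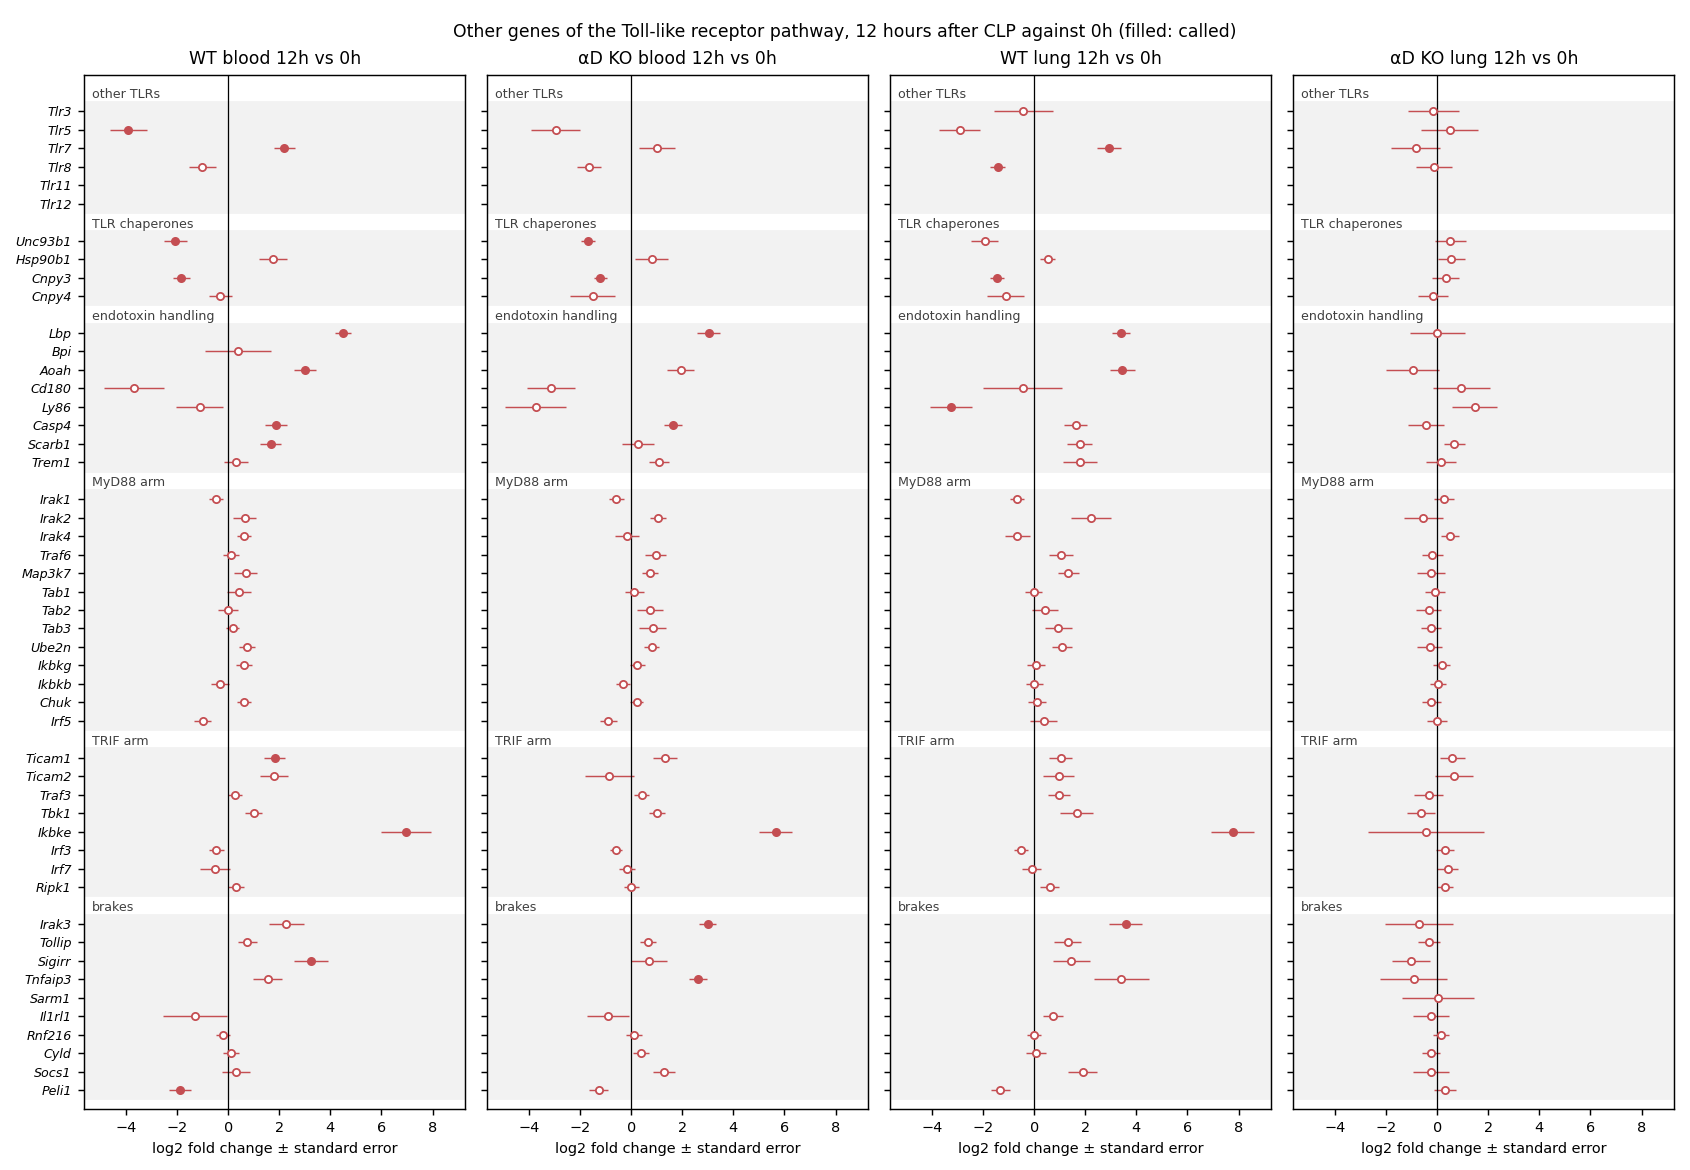
Log2 fold change with standard error at 12 hours after CLP against 0h for 49 other genes of the pathway in 6 lists, in WT and αD KO blood and lung on a shared axis. Filled symbols are DEGs by edgeR (12 in WT blood, 7 in αD KO blood, 8 in WT lung, 0 in αD KO lung), and a gene with no symbol did not pass the filter on low counts.

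Between genotypes, 0 members were called by edgeR in any of the 4 comparisons of αD KO with WT, and DESeq2 also called 0. The background of edgeR was low as well, with 0.0115% of 17356 genes called in blood at 0h (one of these DEGs was Itgad, higher in the libraries labelled αD KO by 4.61 on the log2 scale, adjusted p = 0.0209) and 0% in the other 3. With the library number as a block, 0 genes were called in blood at 0h, so the call of Itgad was lost. The same was true with files of sample 1 summed and with libraries 1a and 2 alone. DESeq2 called 6 and 16 genes in blood at 0h and 12 hours, and 6 and 192 in lung. Members at an unadjusted p under 0.05 numbered 0 and 1 in blood at 0h and 12 hours, beside 0.709% and 4.01% of all genes, and 2 and 1 in lung, beside 1.86% and 8.29%. In blood the largest differences were those of Tlr1 at 0h (log2 fold change 0.62, SE 0.77) and Tlr4 at 12 hours (-0.94, SE 0.49), and the libraries of every member overlapped, where 2.98% and 7.92% of genes did not overlap. A p that misses the threshold does not show that the genotypes were alike.

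In lung the wide difference was that of Cd14, higher in αD KO at 0h (log2 fold change 3.05, SE 1.27, adjusted p = 0.983) and lower at 12 hours (-2.02, SE 1.01, adjusted p = 0.619). Without the libraries that stood apart, these were 0.20 and -1.11. In those fits αD KO keeps libraries 1a and 1b at 0h and library 1b alone at 12 hours. Tlr1 was 1.31 at 0h and -1.13 at 12 hours (adjusted p = 0.983 and 0.598), and 0.48 and -0.77 without the libraries that stood apart. At 12 hours Tlr2 was -0.97 and Tlr13 -0.94 (adjusted p = 0.709 and 0.698), and -0.67 and -1.22 without them. At 0h the libraries of every member overlapped, where 6.82% of genes had no overlap. At 12 hours the αD KO libraries of Tlr1 and Tlr9 lay below those of WT without overlap, against 10% of genes, but Tlr9 is at or near the limit of the counts. With libraries 1a and 2 alone, 2 against 2, 5 members were called lower in αD KO lung at 12 hours, among them Tlr1 (-1.29), Tlr2 (-1.65), Tlr13 (-1.41) and Cd14 (-3.62). The fifth, Tlr9, had 1 and 2 counts against 12 and 25 and entered the fit through the WT libraries, so no fold change is given. That fit called 30.1% of all 15574 genes tested. Both αD KO libraries of that fit are among those that stood apart.

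Between tissues, 0 members were called in any of the 4 comparisons of lung with blood by edgeR. Leaving out Tlr9, members at an unadjusted p under 0.05 numbered 0 and 1 in WT at 0h and 12 hours, beside 2.54% and 18.1% of all genes, and 1 and 3 in αD KO, beside 2.91% and 22.2%. In WT at 0h, 9 members had log2 fold changes between -0.32 and 0.86, none without overlap (0% of genes called, 5.68% without overlap). In WT at 12 hours, where 0.0442% of genes were called, Cd14 was higher in lung by 2.42 (SE 0.74, adjusted p = 0.174), Tlr13 by 1.31 (SE 0.59, adjusted p = 0.291) and Tlr2 by 1.05 (SE 0.57, adjusted p = 0.358). Tlr9 had 12, 5 and 25 counts in lung and 1, 1 and 7 in blood, was not called, and entered the fit through lung, so no fold change is given. Tirap was the 1 member without overlap, lower in lung (-0.52, adjusted p = 0.348), against 22.4% of genes. When WT lung library 1b was left out, Cd14, Tlr6 and Tlr13 were called higher in lung (2.90, 1.13 and 1.73, adjusted p = 0.00358, 0.0213 and 0.0166), in a fit that called 20.2% of all genes. With libraries 1a and 2 alone the same 3 were called, against 28.2% of genes. DESeq2 called Cd14 alone (2.49, adjusted p = 0.00712, range over 14 alternatives 0.00177 to 0.737), against 8.28% of genes.

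In αD KO at 0h, 0% of genes were called and Cd14 was higher in lung in every library (4.37, SE 1.33, adjusted p = 1.00), and by 1.54 without library 2 of lung, while 6.61% of genes had no overlap. In αD KO at 12 hours, where 0.0548% of genes were called, Tlr4 was the member that differed most. It was 128, 107 and 150 CPM in lung and 30.5, 85.9 and 41.6 CPM in blood, without overlap (log2 fold change 1.43, SE 0.46, adjusted p = 0.139). Tlr1 and Tirap were lower in lung without overlap (-0.47 and -0.75, and -0.33 and -1.06 without the libraries that stood apart), and 28.8% of genes had none. DESeq2 called Tlr4 (1.45, adjusted p = 0.0479, range over 15 alternatives 4.59e-04 to 0.445), as did the fit without αD KO blood library 1b of 12 hours (2.01, adjusted p = 0.0462), and these called 10.3% and 2.64% of all genes. With libraries 1a and 2 alone, Tlr4 (2.12), Tlr6 (1.03) and Cd14 (-1.59) were called, against 34.3% of genes. Without the lung libraries that stood apart, which leaves library 1b of lung alone, the log2 fold change of Tlr4 was 1.13.

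Whether the change with time differed between tissues or genotypes was tested by interaction terms. Here a call needed an adjusted p under 0.05 alone. Called genes were 0% in all 3 tests, and 0 members were called by edgeR. The change in WT lung exceeded that in WT blood by 1.48 for Cd14 (SE 1.19, adjusted p = 0.876), beside a median of 0.56 over all genes that rose by 0.17 with RLE normalization, and was lower by -0.82 for Tirap (SE 0.42). In blood the change of αD KO differed from that of WT by 1.12 for Cd14 (SE 0.96), -1.06 for Tlr1 (SE 0.88) and 0.63 for Tlr2 (SE 0.74), all with an adjusted p of 1.00. In lung the change of αD KO differed from that of WT by -5.21 for Cd14 (SE 1.78, adjusted p = 0.410) and by -2.50 for Tlr1 (SE 0.70, adjusted p = 0.410). These 2 members had unadjusted p values of 0.0129 and 0.00404 by edgeR, and DESeq2 called both (adjusted p = 0.0430 and 0.0483, with ranges over 20 alternatives of 0.0325 to 1.00 for Cd14 and 0.0483 to 1.00 for Tlr1). At an unadjusted p under 0.05 were 10.5% of all genes, and DESeq2 called 1.51%. With libraries 1a and 2 alone both were called too (-6.79 and -2.73), against 13.2% of genes. Without the 3 libraries that stood apart, the values were -1.32 and -1.29.

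The genes whose pattern over the 24 libraries was most like that of the 3 members with the widest range were found by the root mean square distance of centred log2(CPM + 1), among 6634 genes with a mean of at least 10 CPM. For Cd14 these were Acod1, which makes itaconate, at 0.77, the phosphatase gene Dusp16 at 0.88 and Klhdc4 at 0.90, where the median gene was at 2.22. Mean Acod1 was 43.4 CPM at 0h and 441 CPM at 12 hours in WT blood, and 131 and 2419 CPM in WT lung. Nearest to Tlr1 were Retnlg, a neutrophil-secreted resistin-like protein gene, at 0.44, Ncf4, a subunit gene of the NADPH oxidase, at 0.44, and Ctnna1 at 0.44 (median 1.18). Nearest to Tlr2 were the glycerol kinase gene Gk at 0.36, Rab31 at 0.40 and Rnf19a at 0.41 (median 0.95). The libraries differ in depth and fall into 8 groups, and these distances are a description.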

How the data were processed

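RNA of sorted neutrophils was sequenced in 8 groups of 3 count files from 16 samples. Per the methods, the authors trimmed reads (Trimmomatic 0.36 in the submitters' processing notes), mapped them with STAR (2.5.2b) and kept unique reads within exons. They deposited raw counts per gene, neither normalized nor filtered. The processing notes name GRCm38, and the counting tool and its strand setting are not given in the sources used here. Symbols were found for 48970 of 49315 genes. Files 1a and 1b of a sample differed by more than counting noise (chi-square per degree of freedom 63.5 to 328.5), as did 1a and 2 (43.8 to 283.8), with 1a nearer to 1b than to 2 in αD KO blood and αD KO lung at 0h. This does not show that 1a and 1b are separate replicates. Each file was taken as a library as an assumption, and the 2 files summed are an alternative. Total counts were 5753476 to 29984954 per library, which limits genes such as Tlr9.

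CPM used TMM-scaled library sizes. Counts were tested with edgeR 4.0.16 (TMM, filterByExpr, quasi-likelihood F test, two-sided) in R 4.3.3 on the libraries of the groups compared, at the thresholds of the study's methods, after a check on simulated counts. The members, lists and tests were chosen with earlier results of these data known, so nothing here is independent support for them. Tables and figures were made with Python 3.11.15, pandas 2.3.3, numpy 2.4.6 and matplotlib 3.10.9. All 10 members and Itgad are named. Genes of the 6 pathway lists are named if called, at most 8 per comparison by smallest adjusted p, and for the 3 members with the widest range of group means the 3 nearest genes are named.

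Alternatives were RLE size factors, no filter on low counts, a minimum of 10 counts per library, DESeq2 1.42.0, all 8 groups in 1 fit, files of sample 1 summed, libraries 1a and 2 alone, each library left out, the adjusted p alone, the αD KO lung fits without the libraries that stand apart (for the genotype by time interaction in lung this was chosen after seeing the data) and the library number as a block. The labels state no pairing. Deviations of same-numbered libraries from their group means correlated across genes above 0.1 for every number in 8 of 12 comparisons, among them both blood comparisons of time (0.415, 0.555 and 0.267 in WT, 0.103, 0.326 and 0.216 in αD KO).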

Additional observations from a re-analysis of the deposited data

How the results depend on the processing

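Of 2151 log2 fold changes of single members refitted under an alternative, 2080 stayed on their side of the threshold (values called in neither fit count here whatever their sign), 34 were called only there, 36 lost the call and 1 turned: Cd14 in αD KO lung at 12 hours against 0h, 3.58 without the libraries that stand apart (-0.17 with all libraries), so that 1 member passed the thresholds there in place of 0, a description, since those libraries were picked by their position between the times. In WT blood over time, no filter on low counts and all 8 groups in 1 fit each gave 1 call in place of 2. In αD KO blood, all 8 groups in 1 fit gave 0 in place of 3. Libraries 1a and 2 alone gave 5 in WT lung over time (37.2% of all genes called), 5 in αD KO against WT lung at 12 hours (30.1%), 3 in lung against blood at 12 hours in either genotype (28.2% in WT, 34.3% in αD KO), and 2 in the genotype by time interaction in lung (13.2%). Each count of 5 includes Tlr9, which entered those fits only through the group where it was high. In lung against blood at 12 hours, DESeq2 (8.28% and 10.3%) and the summed files (4.47% and 8.27%) gave 1 each in either genotype, and DESeq2 gave 2 in that interaction (1.51%). Leaving out 1 library gave 0 to 2 calls in WT blood over time, 0 to 4 in WT lung, 1 to 4 in αD KO blood, 0 to 3 in WT lung against blood at 12 hours, 0 to 1 in αD KO lung against blood at 12 hours, and 0 to 0 in the other 10 comparisons. The library number as a replicate block gave 4 calls in αD KO blood over time, adding Tlr1, 2 in each WT comparison of time and 0 in all others, and so changed no other call of a member. Over these alternatives the genes called in all ranged from 2 to 3201 in WT blood over time (1975 as reported), 0 to 5299 in WT lung (1340), 64 to 2498 in αD KO blood (1238) and 0 to 326 in αD KO lung (0). Why calls move between these settings was not tested. Depth limits Tlr9, and 3 libraries a group limit every adjusted p.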
